A study of Mus musculus with 12 samples.

Results

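Versican (Vcan), the hyaluronan receptor CD44 (Cd44), the proteoglycans serglycin (Srgn), syndecan-3 (Sdc3) and syndecan-4 (Sdc4), and the hyaluronan-binding protein TSG-6 (Tnfaip6) were followed as 6 of the 48526 genes counted in mouse bone marrow-derived macrophages (BMDMs). The genes were listed by symbol and matched to the count table through their Ensembl identifiers. The list was chosen by the values of Vcan in unstimulated KO and WT cells, so that comparison is given for all members as a description without a test. BMDMs are macrophages grown from bone marrow, here for 6 d in medium with 10% serum and 20% L929-conditioned medium, which supplies the growth factor M-CSF. The 4 groups were WT UT (wild type, given PBS as vehicle), KO UT (homozygous HSS9 KO, PBS), WT LPS (wild type, LPS for 6 hr) and KO LPS (homozygous HSS9 KO, LPS for 6 hr), with 3 libraries each. HSS9 lies upstream of Tnf, which encodes tumor necrosis factor alpha, and is described as an enhancer of it, and the KO removes sequence there in the germ line, so the deletion was present in all cells of the mouse. LPS, from the outer membrane of Gram-negative bacteria, activates macrophages through a Toll-like receptor, and its dose is not given in the sources used here. By the study's methods the mice were young adult males. The labels call the WT mice littermates, whereas the methods describe WT mice that were purchased and KO mice kept as homozygous breeding pairs, so genotype and mouse source cannot be told apart. The labels do not say that the 3 libraries of a group came from separate mice, and p-values then measure only the spread between these libraries, which may be technical.

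Proteoglycans are proteins that carry sulfated sugar chains, the glycosaminoglycans. Versican is a large secreted chondroitin sulfate proteoglycan that binds hyaluronan in the extracellular matrix, serglycin is the main proteoglycan of secretory granules in blood cells, and syndecans carry heparan sulfate at the cell surface, where they bind growth factors and chemokines. CD44 is the main surface receptor for hyaluronan on leukocytes, and TSG-6, a secreted protein named for its induction by tumor necrosis factor, binds hyaluronan and modifies it with protein chains.

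Total counts per library ranged from 26154533 to 36423921. Tnf was lower in the KO, with 422 to 450 CPM in KO LPS against 826 to 938 CPM in WT LPS (edgeR log2 fold change -1.04 with SE 0.0604 and adjusted p = 2.76e-10). Levels are CPM, in which each count is divided by the TMM-scaled library total and brought to a common size. The 10 macrophage markers summed to 28018 to 34737 CPM in every library, whereas the T cell and B cell lists reached at most 3.44 and 1.79 CPM. The monocyte list of 8 genes, the neutrophil list of 10, the stromal list of 10 and the mast cell and basophil list of 8 are given beside the results they move with. The share of counts on short structured RNAs, a sign of how RNA was recovered, was 6.64 to 7.98% in KO UT, 3.00 to 3.25% in WT UT, 4.04 to 6.89% in WT LPS and 3.23 to 3.43% in KO LPS, without overlap between the genotypes in either state. This share is thus partly confounded with the groups. A fit with it as a covariate cannot separate its part from that of genotype or LPS.

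All 6 members are protein-coding genes. On GRCm38, Vcan (ENSMUSG00000021614) spans chr13:89655312-89742509 on the minus strand, Cd44 (ENSMUSG00000005087) chr2:102811141-102901665 on the minus strand, and Srgn (ENSMUSG00000020077) chr10:62493833-62527451 on the minus strand. Sdc3 (ENSMUSG00000025743) spans chr4:130792537-130826319 on the plus strand, Sdc4 (ENSMUSG00000017009) chr2:164424247-164443887 on the minus strand, and Tnfaip6 (ENSMUSG00000053475) chr2:52038009-52056686 on the plus strand. None of them is on the chromosome of Tnf. Whether counting used strand is not stated, so reads of an antisense gene could enter a member's count. The antisense gene Gm4117 overlaps Vcan without sharing exons and had 98 to 314 counts per library, against 294 or more for Vcan. The antisense genes Gm26716 and Gm12970 share exon sequence with Sdc3, and had at most 17 and 0 counts.

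The promoters of 4 members are shown because these genes had the largest responses to LPS or held one of the motifs searched. RefSeq (GRCm38.p6) gives 250 bases before and 50 after the start, and all 6 members matched. Capitals mark the motif found, which is TATAAA in Srgn, an NF-kB like sequence (GGG, any 3 bases, then TTCC, found as GGGGAATTCC) in Sdc4 and TGANTCA (an AP-1 like sequence, found as TGAGTCA) in Tnfaip6, and Vcan held none of them in this window.
Vcan (chr13:89742463-89742762, minus strand): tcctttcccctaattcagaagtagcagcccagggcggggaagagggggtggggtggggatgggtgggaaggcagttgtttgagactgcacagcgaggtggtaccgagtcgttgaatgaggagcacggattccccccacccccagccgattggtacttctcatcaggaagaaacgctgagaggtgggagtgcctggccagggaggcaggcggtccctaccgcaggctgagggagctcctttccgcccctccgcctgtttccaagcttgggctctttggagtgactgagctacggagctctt
Srgn (chr10:62527396-62527695, minus strand): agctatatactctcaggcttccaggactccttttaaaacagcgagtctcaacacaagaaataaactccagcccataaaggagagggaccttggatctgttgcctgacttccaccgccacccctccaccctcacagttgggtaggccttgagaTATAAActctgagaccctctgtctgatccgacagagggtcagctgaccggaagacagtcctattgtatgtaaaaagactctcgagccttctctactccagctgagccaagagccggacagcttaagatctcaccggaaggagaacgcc
Sdc4 (chr2:164443139-164443438, minus strand): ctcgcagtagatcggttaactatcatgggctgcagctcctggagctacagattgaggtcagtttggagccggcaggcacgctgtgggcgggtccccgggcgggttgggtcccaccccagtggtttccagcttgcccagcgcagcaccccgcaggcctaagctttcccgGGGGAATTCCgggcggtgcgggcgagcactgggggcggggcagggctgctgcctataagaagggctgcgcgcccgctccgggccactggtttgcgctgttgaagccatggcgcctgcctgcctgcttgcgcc
Tnfaip6 (chr2:52037863-52038162, plus strand): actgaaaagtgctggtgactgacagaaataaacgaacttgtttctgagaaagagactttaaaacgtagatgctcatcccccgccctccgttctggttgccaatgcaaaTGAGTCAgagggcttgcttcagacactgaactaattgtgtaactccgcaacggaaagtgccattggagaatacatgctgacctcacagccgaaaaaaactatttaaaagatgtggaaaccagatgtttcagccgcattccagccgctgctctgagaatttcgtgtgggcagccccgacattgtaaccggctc
The TATAAA of Srgn lies at positions -98 to -93 from the RefSeq start, the sequence of Sdc4 at -82 to -73 and that of Tnfaip6 at -142 to -136. Of 32851 mouse promoter windows of this length, 13.6% held TATAAA, 5.56% the NF-kB like sequence and 7.81% TGANTCA on either strand, and a match is a description only. The windows of Cd44 and Sdc3 held none of these letters. The RefSeq start of Sdc4 is 699 bp inside the outermost GENCODE start, and Srgn has 2 starts in the RefSeq table, of which the one nearest to GENCODE was used.

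After LPS, 5 of the 6 members were called higher in WT BMDMs (19.1% of all 15523 genes tested were called higher) and the same number in KO BMDMs (17.7%). A gene was called where the edgeR adjusted p was below 0.05 and the log2 change exceeded 1 in either direction. Vcan is in both counts as a description, since its UT values chose the list, and without it 4 of the other 5 members were called higher in each genotype. Vcan, Sdc4 and Srgn rose most, from 13.6-fold to 45.1-fold in WT, whereas Cd44 and Tnfaip6 rose 2.30-fold and 2.76-fold, and Sdc3 passed the adjusted p but not the fold. The median log2 fold change of the 5 members other than Vcan was 1.47 in WT and 1.97 in KO, beside 0.047 and -0.055 over all genes tested. Between the genotypes after LPS no member was called (1.25% of all genes were, in either direction) and 3 of 6 had an adjusted p below 0.05 (14.3% of all genes had, and 1 of 6 members without KO LPS replicate 2). Vcan was 1.24-fold lower in the KO while Sdc4 and Sdc3 were 1.13-fold and 1.15-fold higher.

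**Figure D1:**
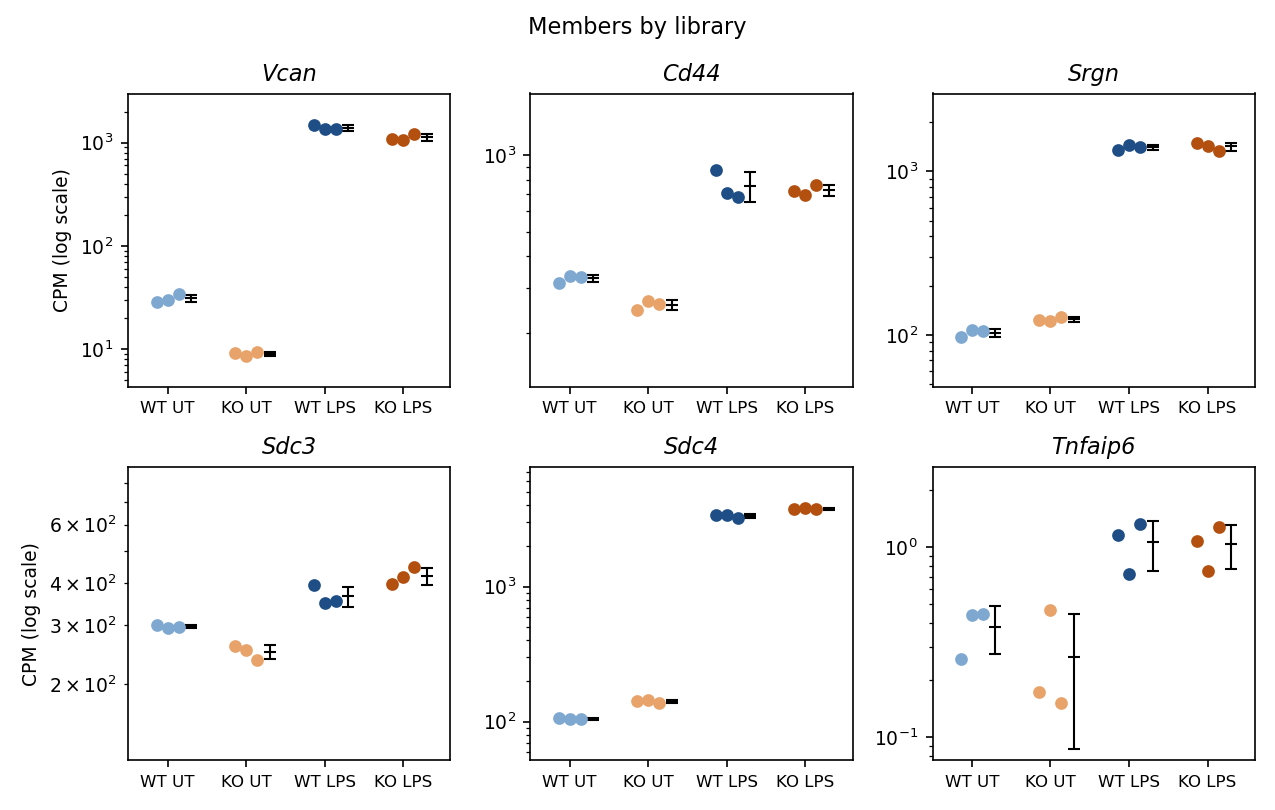
CPM of each member (log scale) in the 12 libraries, with 1 point per library and the mean and SD of the 3 libraries of a group beside them. Vcan, Srgn and Sdc4 stood far higher in both LPS groups than in both UT groups, whereas Sdc3 moved little and Tnfaip6 stayed below 1.4 CPM.

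Vcan, the matrix proteoglycan, had 28.8, 30.1 and 33.9 CPM in the WT UT libraries and 9.05, 8.64 and 9.43 CPM in KO UT. It reached 1495, 1350.2 and 1340.1 CPM in WT LPS and 1091, 1061 and 1217 CPM in KO LPS. All LPS libraries were thus far above all UT libraries, and WT was above KO without overlap in both states. The LPS level was 45.1-fold the UT level in WT (log2 fold change 5.50, SE 0.0793) and 124-fold in KO (6.95, SE 0.0873), given without a test because the UT values chose the list. These ranked 229th and 128th from the highest of 15523 genes tested. After LPS, Vcan was lower in the KO by a log2 fold change of -0.31 (95% interval -0.45 to -0.18, edgeR adjusted p = 0.00253). Without stimulation it was 3.42-fold lower in the KO (log2 fold change -1.77, SE 0.0777), the 95th lowest of the 15523 values, which is the pattern for which it was chosen. The log2 LPS response was accordingly larger in the KO by 1.46 (SE 0.101), a description, since it holds the same UT values. The antisense gene Gm4117 rose by 1.503 in WT and 1.66 in KO (edgeR log2 values, adjusted p = 3.55e-09 and 1.89e-09), with 3.14 CPM ± 0.414 in KO UT and 4.25 CPM ± 0.542 in WT UT (SD, n = 3).

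Vcan is also a gene of classical monocytes, and markers of that cell moved with it in the UT cells. The summed level of the 8 monocyte markers was 304 to 329 CPM in WT UT and 235 to 248 CPM in KO UT, and all 8 were above 3 counts in at least 1 library of each group. Ccr2 and Cx3cr1 made up most of it, with mean levels of 199 and 86.9 CPM in WT UT and 158 and 52.4 CPM in KO UT. Ly6c2, a defining marker of classical monocytes, was at 1.76 CPM in WT UT and 2.01 CPM in KO UT. After LPS the monocyte sum was 140 to 166 CPM in WT and 192 to 204 CPM in KO, the opposite order to Vcan. In bulk libraries fewer cells of a type and less RNA per cell cannot be told apart, and the part of the monocyte genes and of the short RNA share in the Vcan difference was not tested. With the short RNA share as a covariate the UT log2 fold change of Vcan was -1.497, and with library totals in place of TMM it was -1.92.

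Srgn, the granule proteoglycan, had 96.7, 107 and 105 CPM in WT UT and 123, 122 and 129 CPM in KO UT. It had 1347, 1450.0 and 1407 CPM in WT LPS and 1493, 1428 and 1332 CPM in KO LPS. The KO libraries were above the WT libraries in the UT state and overlapped them after LPS. The rise was 13.6-fold in WT (edgeR log2 fold change 3.77 with SE 0.0618 and adjusted p = 2.30e-22) and 11.4-fold in KO (3.51, SE 0.0611, edgeR adjusted p = 4.93e-22). After LPS the genotypes did not differ past the test (log2 fold change 0.017, 95% interval -0.098 to 0.13, edgeR adjusted p = 0.875). Srgn is also abundant in mast cells and neutrophils, whose summed marker levels were higher in the LPS libraries, each mainly through 1 gene. The mast cell and basophil sum was 2.74 to 4.42 CPM in the UT libraries and 124 to 148 CPM in the LPS libraries, of which Hdc, the enzyme that makes histamine, had mean levels of 143 CPM in WT LPS and 130 CPM in KO LPS, whereas Kit was at 2.78 CPM in WT UT and 0.757 CPM in WT LPS. The defining mast cell proteases Tpsb2 and Cma1 were at or under 3 counts in all 12 libraries. The neutrophil sum was 20.6 to 22.2 CPM in WT UT, 43.3 to 49.3 CPM in KO UT and 50.5 to 79.7 CPM in the LPS libraries, so that in UT it was higher in the KO, as Srgn was, with Ly6g at or under 3 counts in all 12 libraries. S100a8 had mean levels of 7.32 CPM in WT UT, 16.4 CPM in KO UT and 52.7 CPM in WT LPS, whereas S100a9 (10.99 and 6.08 CPM), Ngp (0.587 and 0.192 CPM) and Ltf (1.82 and 0.206 CPM) were lower in WT LPS. Camp was higher, with 0.206 CPM in WT UT and 4.02 CPM in WT LPS, and the part of these genes in the Srgn result was not tested.

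Sdc4, the syndecan found in most adherent cells, had 107, 104 and 105 CPM in WT UT and 141, 146 and 138 CPM in KO UT. It had 3402, 3399 and 3196 CPM in WT LPS and 3746, 3839 and 3726 CPM in KO LPS. The KO libraries were above the WT libraries without overlap in both states, and the LPS libraries were far above the UT libraries. The rise was 31.7-fold in WT (edgeR log2 fold change 4.99 with SE 0.0529 and adjusted p = 2.97e-25) and 26.6-fold in KO (4.73, SE 0.0522, edgeR adjusted p = 4.90e-25). After LPS, Sdc4 was 1.13-fold higher in the KO (edgeR log2 fold change 0.18 with SE 0.0445 and adjusted p = 0.0103). Sdc4 took 0.0134 to 0.0169% of all counts in the UT libraries and 0.259 to 0.314% in the LPS libraries. The genotype difference no longer passed without KO LPS replicate 2 (edgeR adjusted p = 0.0522) or with the short RNA share as a covariate (edgeR adjusted p = 0.0659).

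Sdc3, a syndecan best known from the nervous system and present on macrophages, had 300.1, 295 and 296 CPM in WT UT and 260, 252 and 236 CPM in KO UT. It had 395, 349 and 354 CPM in WT LPS and 399, 418 and 447 CPM in KO LPS. The KO libraries were thus below the WT libraries in UT and above them after LPS, although the highest WT LPS library and the lowest KO LPS library were close. The log2 LPS response was 0.30 in WT (SE 0.0597, edgeR adjusted p = 0.000118) and 0.76 in KO (SE 0.0600, edgeR adjusted p = 2.11e-10). The WT response turned to -0.36 with library totals in place of TMM (edgeR adjusted p = 9.01e-06) and was 0.12 with upper-quartile scaling (edgeR adjusted p = 0.0585). These scalings moved the median of all genes to -0.62 and -0.14, and relative to that median Sdc3 was at 0.25 under all of them. This holds by construction, since a change of scaling shifts all genes of a comparison alike, and it does not decide between the scalings. After LPS, Sdc3 was 1.15-fold higher in the KO (edgeR log2 fold change 0.20 with SE 0.0597 and adjusted p = 0.0280, and 0.0509 with the replicate block). It also missed the threshold in fits without KO LPS replicate 2 (edgeR adjusted p = 0.0598), KO LPS replicate 3 (0.132), WT LPS replicate 2 (0.118) or WT LPS replicate 3 (0.0724), with the 2 LPS groups alone (0.0694) and with the short RNA share as a covariate (0.224).

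Cd44, the hyaluronan receptor, had 316, 336 and 331 CPM in WT UT and 247, 268 and 259 CPM in KO UT. It had 870, 706 and 687 CPM in WT LPS and 721, 694 and 765 CPM in KO LPS. The LPS libraries were above the UT libraries, the KO was below the WT in UT, and the genotypes overlapped after LPS, where WT LPS replicate 1 stood above the others. The rise was 2.30-fold in WT (edgeR log2 fold change 1.20 with SE 0.0721 and adjusted p = 1.65e-12) and 2.81-fold in KO (1.49, SE 0.0727, edgeR adjusted p = 4.17e-14). With library totals in place of TMM the call was lost in both genotypes (0.54 in WT and 0.98 in KO), and relative to the median of all genes the WT response was 1.15 with and without TMM. That the value relative to the median stays the same is fixed by construction and does not decide between the scalings. After LPS the genotype difference was -0.053 on the log2 scale (95% interval -0.20 to 0.095, edgeR adjusted p = 0.674), and without WT LPS replicate 1 it was 0.063. With the short RNA share as a covariate it was -0.26 (edgeR adjusted p = 0.0104).

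Tnfaip6, the gene for TSG-6, was near the lower limit of detection. It had 11, 20 and 21 counts in WT UT and 6, 16 and 6 counts in KO UT. It had 31, 16 and 28 counts in WT LPS and 28, 20 and 35 counts in KO LPS. In CPM the LPS libraries (0.718 to 1.32) were above the UT libraries (0.152 to 0.470), and the genotypes overlapped in both states. The log2 LPS response was 1.47 in WT (SE 0.428, edgeR adjusted p = 0.00424) and 1.97 in KO (SE 0.458, edgeR adjusted p = 0.000617). When 1 library was left out the KO response ranged from 1.68 (without KO UT replicate 3) to 2.64 (without KO UT replicate 2) and the WT response from 1.25 to 1.68. A genotype difference after LPS was not detectable at this depth (log2 fold change -0.040, 95% interval -0.89 to 0.81, edgeR adjusted p = 0.963). The LPS calls were lost with the short RNA share as a covariate (WT 1.23, edgeR adjusted p = 0.118, and KO 2.38, edgeR adjusted p = 0.0644), and the WT call with library totals in place of TMM (0.80, edgeR adjusted p = 0.0898).

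**Figure D2:**
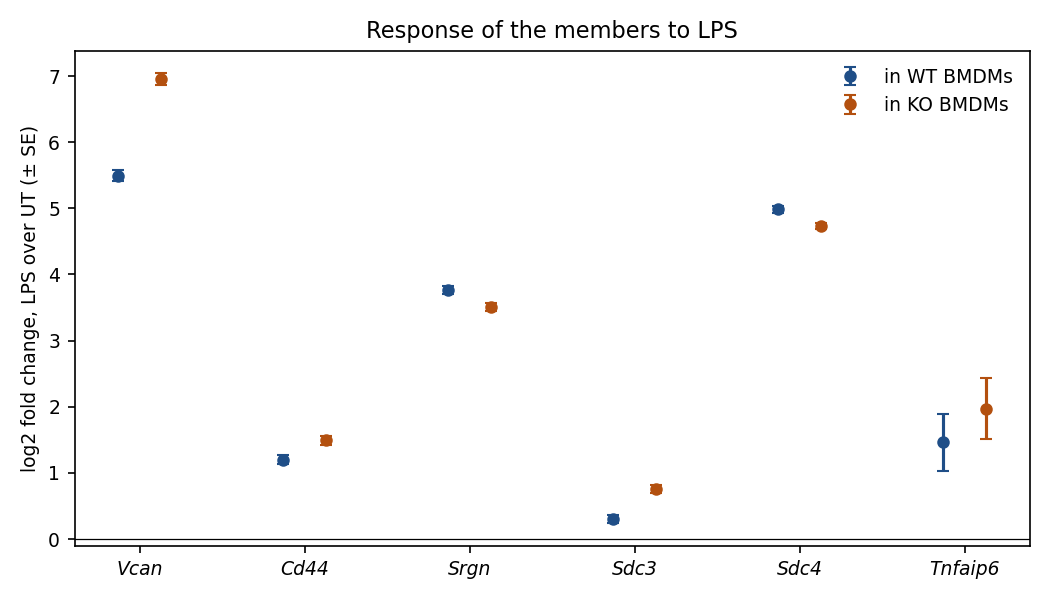
Log2 fold change of LPS over UT for each member in WT and in KO BMDMs, with bars for the SE of the fit. Vcan rose most in both genotypes (5.50 in WT and 6.95 in KO) and Sdc3 least (0.30 and 0.76).

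The next comparison asked whether the LPS response of a member differed between the genotypes, and it is tested by the interaction of genotype and LPS for the 5 members other than Vcan. None of the 5 was called (2.16% of all genes were), and 3 had an adjusted p below 0.05, as had 16.8% of all genes. The response of Sdc3 was larger in the KO by 0.46 on the log2 scale (SE 0.0844, edgeR adjusted p = 0.000750). The responses of Sdc4 and Srgn were smaller in the KO, with a difference of -0.25 for Sdc4 (SE 0.0637, edgeR adjusted p = 0.00840) and of -0.26 for Srgn (SE 0.0787, edgeR adjusted p = 0.0297, and 0.0573 with the replicate block). The values for Cd44 (0.29, 95% interval 0.081 to 0.50, edgeR adjusted p = 0.0520) and Tnfaip6 (0.51, 95% interval -0.80 to 1.82, edgeR adjusted p = 0.648) did not pass, and the latter was 0.21 to 1.18 when 1 library was left out. Cd44 passed without WT LPS replicate 1 (0.41, edgeR adjusted p = 7.51e-05), without KO LPS replicate 2 (0.33, edgeR adjusted p = 0.0486), with DESeq2 (0.37, adjusted p = 0.00418) and, in edgeR, with RLE scaling (0.37, adjusted p = 0.0128), library totals (0.45, adjusted p = 0.00312), no filter on low counts (0.32, adjusted p = 0.00280) or upper-quartile scaling (0.29, adjusted p = 0.0326). Srgn did not pass in 6 of the 12 fits that left out 1 library (KO LPS replicate 2 or 3, KO UT replicate 1 or 3, WT LPS replicate 2, or WT UT replicate 1), where the edgeR adjusted p was 0.0520 to 0.0963. Sdc4 did not pass with RLE scaling or library totals, and Srgn did not pass with DESeq2, RLE scaling, library totals or no filter on low counts. With the short RNA share as a covariate, 0 of the 5 passed, and this share differed most between the UT groups.

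In the UT cells, whose values chose Vcan, the members moved in both directions between the genotypes. Cd44 was at -0.34 (SE 0.0714), Sdc3 at -0.25 (SE 0.0596) and Tnfaip6 at -0.55 (SE 0.481) on the log2 scale, KO over WT. Sdc4 was at 0.43 (SE 0.0456) and Srgn at 0.27 (SE 0.0563). With all 12 libraries Vcan was thus the only member with a difference above 1 on the log2 scale, and 4 of the 6 members were lower in the KO. The value of Tnfaip6 ranged from -1.22 (without KO UT replicate 2) to -0.25 (without KO UT replicate 3) when 1 library was left out. Of all genes tested, 1.82% were called in this comparison. With the short RNA share as a covariate the sign of Cd44 turned, to 0.11.

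**Figure D3:**
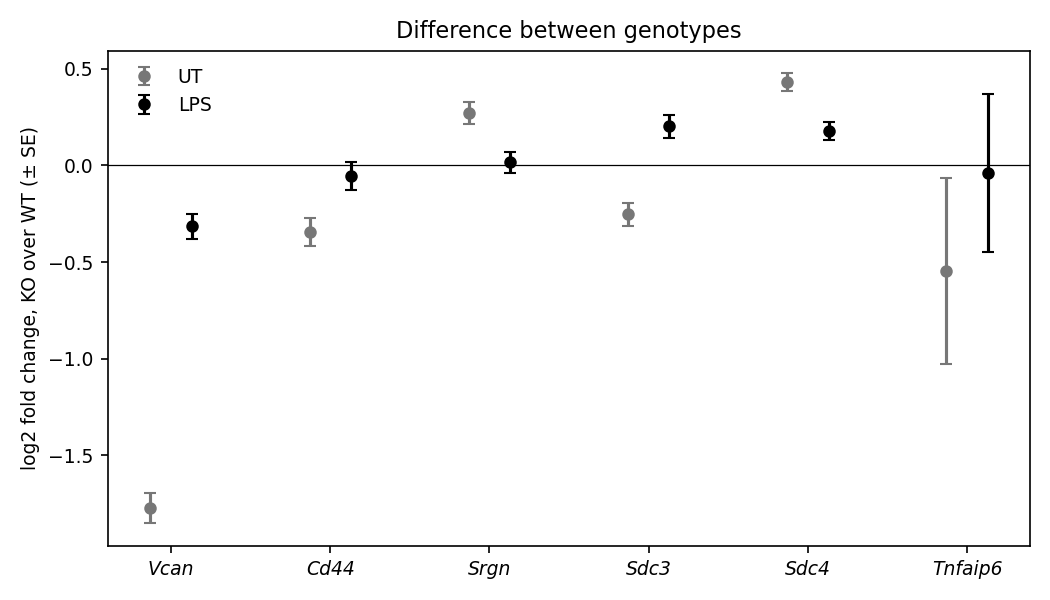
Log2 fold change of KO over WT for each member, in UT cells and after LPS, with bars for the SE of the fit. Vcan was lower in the KO in both states (-1.77 in UT and -0.31 after LPS), whereas Sdc3 was below 0 in UT and above 0 after LPS.

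Levels of different genes were compared as CPM per kb of exon, which adjusts for gene length by the union of annotated exons. The union exceeds the longest transcript unevenly (2196 against 1727 bp in Srgn, 2547 against 2458 bp in Sdc4). Close ranks and the ratios between genes therefore depend on the length used. In WT UT, Sdc3 (49.6 ± 0.461), Cd44 (48.4 ± 1.57) and Srgn (46.9 ± 2.55) were highest, with ranges that overlapped from one to the next (SD, n = 3). Sdc4 followed (41.3 ± 0.653), and Vcan (2.14 ± 0.183) and Tnfaip6 (0.223 ± 0.0630) were far lower, each below the range of the gene above it. In KO UT, Srgn (56.7 ± 1.65) and Sdc4 (55.7 ± 1.48) were highest and overlapped, then Sdc3 (41.6 ± 2.00) and Cd44 (38.1 ± 1.58), which also overlapped, then Vcan (0.625 ± 0.0276) and Tnfaip6 (0.155 ± 0.104). LPS changed this order. In WT LPS, Sdc4 was highest at 1308 ± 46.3, 2.05 times Srgn (638 ± 23.7), and Cd44 (111 ± 14.9) and Vcan (96.5 ± 5.98) overlapped above Sdc3 (61.1 ± 4.20) and Tnfaip6 (0.622 ± 0.182). In KO LPS the order was Sdc4 (1480.3 ± 23.7), Srgn (646 ± 36.8), Cd44 (107 ± 5.29), Vcan (77.6 ± 5.72), Sdc3 (70.3 ± 4.03) and Tnfaip6 (0.605 ± 0.156), where the ranges of Vcan and Sdc3 overlapped. Among the 12231 protein-coding genes tested, Sdc4 ranked 734th by this level in WT UT and 28th in WT LPS, Srgn 636th and 67th, and Vcan 7990th and 581st.

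**Figure D4:**
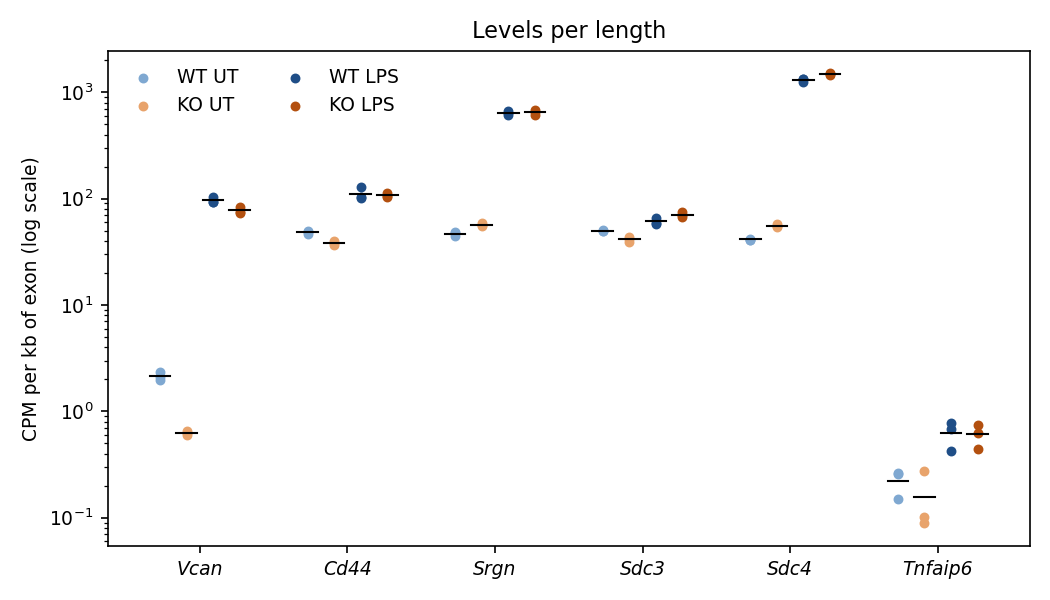
CPM per kb of exon (log scale) of the 6 members in each group, with 1 point per library and a line at the mean. Sdc4 and Srgn lay between 40.8 and 58.5 in the UT groups and at 607 or more after LPS, whereas Sdc3 stayed between 39.4 and 74.6.

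The genes that make, carry, cut or bind the chains were taken as 5 lists with 128 genes, of which 88 were tested. After LPS, 24 were called higher and 18 lower in WT (47.7% of the 88, beside 37.8% of all genes), and 31 higher and 17 lower in KO (54.5%, beside 37%). In the hyaluronan system, 4 of 14 tested genes were called higher and 3 lower in WT (50%, beside 37.8% of all genes). In KO, 7 were called higher and 4 lower (78.6%, beside 37%). Has1, a hyaluronan synthase chosen after its values had been seen, went from 0 counts in each WT UT library to 159, 129 and 145 counts in WT LPS, at least 92.7-fold higher with 3 counts per library as the floor. Cemip2, a cell surface hyaluronidase, rose from 23.6 CPM ± 0.730 to 353 CPM ± 9.77 in WT (edgeR log2 fold change 3.90 with SE 0.0633 and adjusted p = 1.96e-22) and by 3.996 in KO. Ptx3, the pentraxin that joins TSG-6 in hyaluronan matrix, had 1, 0 and 7 counts in WT UT and 1031, 944 and 809 counts in WT LPS. It was the 1 gene of this list called between the genotypes after LPS, with 500, 497 and 532 counts in KO LPS (edgeR log2 fold change -1.05 with SE 0.138 and adjusted p = 2.83e-05).

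Among the other core proteins, 3 of 11 tested genes were called higher and 2 lower in WT after LPS (45.5%, beside 37.8% of all genes). Syndecan-1 (Sdc1) rose from 82.3 CPM ± 2.05 to 282 CPM ± 3.07 in WT (edgeR log2 fold change 1.78 with SE 0.0517 and adjusted p = 4.02e-18). The heparan sulfate proteoglycan agrin (Agrn) rose by 2.35 in WT and 2.67 in KO. Between the genotypes after LPS, 4 of the 11 were called higher in the KO (0.586% of all genes were called higher), and they are named after their values had been seen. These were Dcn (decorin, log2 fold change 1.58), Sdc2 (1.60), Bgn (biglycan, 1.23) and Hspg2 (perlecan, 1.11), with 6 to 43 counts per library in WT LPS and 19 to 103 in KO LPS. Fibroblast collagens moved the same way, and Dcn is itself on the stromal list. The 10 stromal markers summed to 23.7 to 27.6 CPM in WT LPS and 33.3 to 36.6 CPM in KO LPS, of which Pdgfrb had mean levels of 19.8 CPM in WT LPS and 19.7 CPM in KO LPS. The others include Col1a1 at 0.291 and 0.788 CPM and Col3a1 at 0.644 and 1.87 CPM in these groups, with Thy1 at or under 3 counts in all 12 libraries. The part of these genes in the calls was not tested.

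For chain assembly and sulfation, 10 of 34 tested genes were called higher and 9 lower in WT after LPS (55.9%, beside 37.8% of all genes). Between the genotypes after LPS 0 were called (1.25% of all genes were). Enzymes of this list moved in both directions. Xylt1, which adds the first sugar of a chain to the core protein, fell from 84.3 CPM ± 0.934 to 7.88 CPM ± 0.270 in WT (edgeR log2 fold change -3.42 with SE 0.0735 and adjusted p = 1.94e-20) and changed by -3.46 in KO. The other xylosyltransferase of this list, Xylt2, named after its values had been seen, was called higher in both genotypes (1.41 in WT and 1.14 in KO). Its mean over the 12 libraries was 488 CPM, beside 41.5 CPM for Xylt1. Ext1, which lengthens heparan sulfate, rose from 15.3 CPM ± 1.30 to 225 CPM ± 4.93 in WT (3.88, SE 0.0764, edgeR adjusted p = 4.29e-21) and by 3.68 in KO. Of the sulfotransferases for chondroitin sulfate, Chst11 rose by 2.71 in WT and 3.07 in KO, and Chst3 changed by -2.97 in WT and -2.43 in KO on the log2 scale. Ndst1, which sulfates heparan sulfate, changed by -2.62 in WT and -2.70 in KO.

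Of the genes that cleave core proteins or chains, 3 of 20 tested were called higher and 3 lower in WT after LPS (30%, beside 37.8% of all genes). Mmp14, a membrane protease that cuts CD44 and syndecans, rose from 2.91 CPM ± 0.271 to 436 CPM ± 28.9 in WT (edgeR log2 fold change 7.22 with SE 0.0983 and adjusted p = 1.17e-23) and by 7.71 in KO. Sgsh, a lysosomal heparan sulfatase, changed by -5.04 in WT (SE 0.144, edgeR adjusted p = 2.94e-18) and -5.07 in KO, and Sulf2, an extracellular heparan sulfatase, changed by -2.36 and -2.14. The sheddase Adam17 was called in KO (1.29, SE 0.0562, edgeR adjusted p = 6.04e-15) and stood just under the fold threshold in WT (0.97, SE 0.0559, edgeR adjusted p = 8.76e-13). Between the genotypes after LPS, Adamts4, a protease that cuts versican, was called lower in the KO (35 to 49 counts against 75 to 85, log2 fold change -1.06) and Mmp9 higher (91 to 101 counts against 27 to 47, 1.08), both named after their values had been seen.

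Of the partners of CD44 and syndecans, 4 of 9 tested genes were called higher and 1 lower in both genotypes after LPS, and 0 between the genotypes. The called share after LPS was 55.6% in each genotype, beside 37.8% of all genes in WT and 37% in KO. Tlr2, a Toll-like receptor to which versican binds, rose from 170.0 CPM ± 2.63 to 930.0 CPM ± 36.7 in WT (edgeR log2 fold change 2.45 with SE 0.0539 and adjusted p = 2.94e-20). The CD44 linker ezrin (Ezr) rose by 2.29 in WT and 2.52 in KO, the CD44 ligand galectin-9 (Lgals9) by 2.22 in WT and 2.86 in KO, and merlin (Nf2) changed by -1.49 in WT and -1.43 in KO. In all, 7 of the 88 genes were called between the genotypes after LPS (7.95%, beside 1.25% of all genes). The count was 4 without KO LPS replicate 2, WT LPS replicate 2 or WT LPS replicate 3, and 2 with the short RNA share as a covariate.

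**Figure D5:**
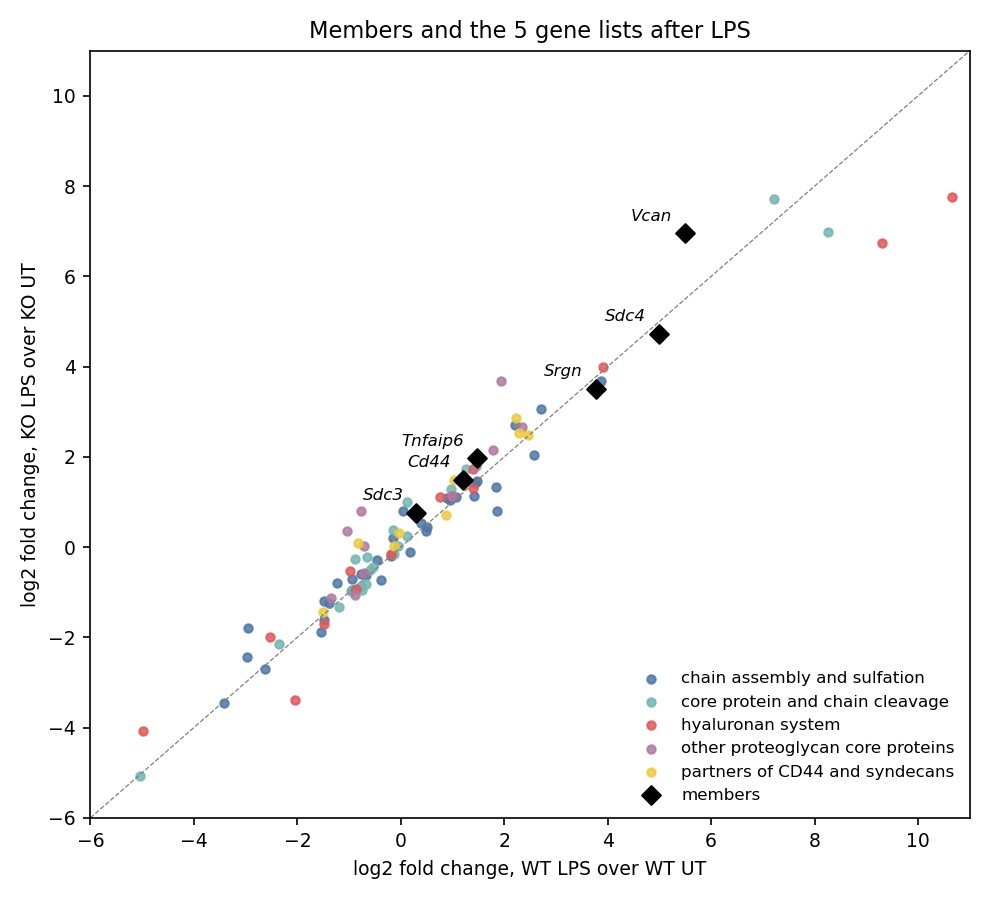
Log2 fold change after LPS in WT (horizontal axis) and in KO (vertical axis) for the 88 tested genes of the 5 lists and the 6 members (black diamonds), with a dashed line where both are equal. Vcan lay above the line (5.50 in WT and 6.95 in KO), and Sdc4 and Srgn lay just below it.

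Over the 12 libraries, the member pair most alike in log2 CPM was Srgn and Sdc4 (Pearson r 0.999), and the pair least alike was Sdc4 and Tnfaip6 (0.855). All these values share the same libraries and are set mainly by the split between UT and LPS, so they are descriptions. The protein-coding genes closest to Vcan by Pearson r were Stat2, Ifit3b and Plekhg1 (0.9991 to 0.9997). Those closest to Srgn were Cd40, Cacna1d and Milr1, to Sdc4 Marcksl1, Milr1 and Ccl9, to Cd44 Synj1 and Ecpas, to Sdc3 Myh9, Fth1 and Tln1 (0.980 to 0.986), and to Tnfaip6 Zfp592, Tecpr2 and Klhl12 (0.943 to 0.954).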

How the data were processed

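Gene-level counts of 12 BMDM libraries were analysed. Per the labels and methods, the authors made stranded total RNA libraries with globin removal, aligned reads to GRCm38 with HISAT2 2.1.0 and counted them with featureCounts 2.0.0 (FastQC 0.11.9 and SAMtools 1.17 are also named in the submitters' processing notes). The deposited values are raw counts per gene without normalization. The annotation release, strand setting and treatment of multi-mapping reads are not given in the sources used here. Identifiers were matched without version to a GENCODE annotation of GRCm38 (48144 of 48526, and the other 382 held 0.122% of counts).

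Genes were kept by filterByExpr (minimum count 10, minimum total count 15), which left 15523. All 12 libraries entered 1 model of group means tested by quasi-likelihood in edgeR 4.0.16 (limma 3.58.1, R 4.3.3) after TMM scaling, with Benjamini-Hochberg adjustment over all genes tested. The SE is the fold change divided by the square root of F. The study's thresholds, 0.05 for the adjusted p and 1 for the log2 change in either direction, defined a call. The study used DESeq2 (version 1.42.0 was run here as an alternative). The common biological coefficient of variation was 0.0712. The fit was tested on simulated data. Reads carried no molecular identifiers and are not independent molecules, so floors cover counting error alone, and totals of 26154533 to 36423921 counts set the precision. CPM per kb used the union of exons. Figures used matplotlib 3.10.9 in Python 3.11.15.

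The members and lists were chosen with earlier results of these data known. Named genes were the members, Tnf, overlapping genes, in each list and LPS comparison the 2 largest increases and decreases among called genes of mean CPM of at least 5, and for each member the 3 protein-coding genes of highest Pearson r, of which 1 is not reported here. Genes named after their values had been seen are marked. Each library's replicate number was used as its batch number, which pairs the libraries by number. The titles give a replicate number and do not say that same-numbered libraries were handled together. The deviations from group means of same-numbered libraries had r of -0.0631 to 0.0373 over 18 pairs, and 0 were above 0.1. All replicate pairs differed by more than counting noise. Results were recomputed with DESeq2, with upper-quartile or RLE scaling, library totals without TMM (added after seeing the data), no filter on low counts, a minimum mean CPM of 1, a replicate block, the compared groups alone, protein-coding genes only, the short RNA share as a covariate, Spearman rho for likeness, and fits that each left out 1 library.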

Additional observations from a re-analysis of the deposited data

Results flagged for a closer look

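For 3 of the 5 members tested the LPS response differed between the genotypes by the test of the difference itself (edgeR interaction of genotype and LPS, 3 libraries in each of 4 groups). Over all genes tested, 16.8% had an adjusted p below 0.05 in this interaction. The log2 response of Sdc4 was smaller in the KO (difference -0.25), as was that of Srgn (-0.26), whereas that of Sdc3 was larger (0.46). All 3 differences were below 1 on the log2 scale, and for all 3 genes the UT libraries of the genotypes did not overlap. None of the 3 passed with the short RNA share as a covariate, Sdc4 and Srgn did not pass with RLE scaling or library totals, and Srgn also did not pass with DESeq2, with no filter on low counts, with the replicate block or in 6 of the 12 fits that left out 1 library. The covariate is partly confounded with the groups, so its fits cannot separate the share from genotype or LPS.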

How the results depend on the processing

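Of 279 values recomputed under other settings, 235 kept their direction and side of the threshold or moved by less than the spread between libraries, and so did 329 of 348 values from fits that left out 1 library. The number of members called after LPS was 5 in each genotype, but 4 with the short RNA share as a covariate or a mean CPM of at least 1, and with library totals without TMM 3 in WT and 4 in KO. In that last setting 23.6% of all calls in WT were higher, beside 50.6% with TMM. Upper-quartile scaling gave 38.9% higher in KO after LPS, beside 47.7%. In KO UT against WT UT the share of higher calls was 56.2% with TMM, 43.7% with DESeq2, 44.4% with RLE and 34.0% with library totals. The number of members past the adjusted p between the LPS groups was 3, and 1 to 3 when 1 library was left out. The number of list genes called between the LPS groups was 7, 2 with the short RNA share as a covariate, and 4 to 7 when 1 library was left out. With that covariate 0 members passed the interaction. By Spearman rho, with ties given the same rank, 4 of the 18 genes most alike to a member stayed among its closest 3.

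Signs turned for Cd44 with the covariate (KO UT against WT UT 0.11, interaction -0.37) and without WT LPS replicate 1 (KO LPS against WT LPS 0.063, with a range of -0.12 to 0.063 over the libraries left out). They turned for Srgn between the LPS groups with protein-coding genes only (-0.019), with upper-quartile scaling (-0.0071), without KO LPS replicate 1 (-0.020) and without WT LPS replicate 1 (-0.010), with a range of -0.020 to 0.061. For Tnfaip6 between the LPS groups they turned with the covariate (0.17) and without KO LPS replicate 2 (0.15), WT LPS replicate 1 (0.028) or WT LPS replicate 3 (0.13), with a range of -0.25 to 0.15. Sdc3 in WT turned to -0.36 with library totals. The interaction of Sdc4 did not pass with RLE (edgeR adjusted p = 0.0563), library totals (0.302) or the covariate (0.146), and that of Srgn with DESeq2 (adjusted p = 0.0953), RLE (0.128), library totals (0.420) or no filter on low counts (0.0621). The cause was not tested. With the replicate block the adjusted p no longer passed for Sdc3 between the LPS groups (log2 fold change 0.20, edgeR adjusted p = 0.0509) and for Srgn in the interaction (-0.26, edgeR adjusted p = 0.0573), and the block changed no other side of a threshold for a member. Between the LPS groups and in the interaction 0 members were called under every setting run. A mean CPM of at least 1 removed Tnfaip6, and DESeq2 gave no adjusted p for its interaction. With 6 to 35 counts per library, Tnfaip6 was limited by depth.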
